A study of Rattus norvegicus with 6 samples.

Results

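The genes described here are those that copy DNA in S phase and those that divide the chromosomes and the cell in mitosis. A list of 37 genes was matched to the array through its platform annotation, and 20 of them were read by 33 probe sets that name exactly 1 gene, of 4736 named genes and 8740 probe sets in all. These comprise 7 of 13 replication genes, on 12 probe sets, and 13 of 24 mitotic genes, on 21 probe sets. The other 17 genes, among them Mki67, Ccna2, Aurka, Birc5, Rrm2 and Mcm2, had no such probe set and were not analysed here.

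The samples were cardiac fibroblasts in primary culture, isolated from the ventricles of Sprague-Dawley rats aged 1-2 days. The 3 control cultures received water and the 3 treated cultures pertussis toxin (PTX), at a dose not given in the sources used here, and the series lists 24 h as the treatment time. PTX modifies the alpha subunits of Gi and Go, so that their receptors no longer activate them. Each culture was read on its own 1-colour Affymetrix array, and the labels do not say whether the cultures of a group came from separate isolations, so the spread behind the p-values may be technical only.

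In the cell cycle, cyclin E with Cdk2 starts S phase, the Mcm helicase unwinds DNA, and the Pcna clamp holds the polymerases on it. Cyclin B with Cdk1 then drives entry into mitosis, Aurora and Polo kinases build the spindle, and Cdc20 activates the ubiquitin ligase that releases the sister chromatids. Transcripts of the first set peak around the start of S phase under E2F factors, and those of the second in G2 and mitosis under factors that bind CCAAT boxes and CHR elements. Heart fibroblasts and cardiomyocytes of newborn rats both still divide, and fibroblasts go on dividing in culture. In a culture of mixed cells, fewer dividing cells and less RNA per dividing cell cannot be told apart.

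The 6 arrays were on a common scale, with median signals of 63.1 to 68.85. Control replicate 1 stood apart, its correlation with any other array being 0.952 to 0.960 against at least 0.978 among the other 5, so results are also given without it. Fibroblast markers were bright: the summed signal of 24 probe sets of 11 fibroblast genes was 121728 to 138004 in the controls and 117211 to 128141 with PTX. Within that sum single markers moved both ways. Of the 24 probe sets, 4 (16.7%) had every PTX array above every control and 6 (25%) had every PTX array below. Over all probe sets these shares were 8.91% and 9.06%. Thy1 on rc_AA874848_s_at had 509.2 to 558.2 in the controls and 238.3 to 295.5 with PTX. Lum had 759.7 to 1707.5 and 2612.1 to 2760.8, and Postn 1142.3 to 2872.3 and 3476 to 3831.4. The 25 probe sets of 13 cardiomyocyte genes were bright too, at 457228 to 563068 in the controls and 400497 to 449150 with PTX, groups that did not overlap. Of these probe sets, 21 changed downwards and 4 upwards. The middle log2 change was -0.26, or -0.11 without control replicate 1. The groups were separated downwards for 8 (32%) and upwards for 1 (4%). Sums over 15 probe sets of 8 macrophage and leukocyte genes were 3652.9 to 3763.2 and 4443.4 to 5682.5, also without overlap. Most of these came from Lyz2, a lysozyme gene read by a probe set named rc_AA892775_at (2138.6 to 2516.8 and 2908.4 to 4149.7), while Fcgr2b, an Fc receptor gene read by X73371_at, had 297.5 to 353.8 in the controls and 591.5 to 647.6 with PTX. Its log2 change was 0.88 (limma adjusted p = 0.0876, or 0.00771 without control replicate 1). The list as a whole did not move 1 way. Of its 15 probe sets, 8 changed upwards and 7 downwards, and the middle log2 change was 0.01. The groups were separated upwards for 3 (20%) and downwards for 1 (6.67%). The latter read Cd74 on X13044_at, too dim to be tested, at 14.4 to 27.8 in the controls and 2.9 to 6.1 with PTX. C1qb had log2 changes of -0.39 on X71127_at and -0.16 on X71127_g_at, with overlap. The leukocyte marker Ptprc was at most 62.1 on any array and the macrophage receptor Csf1r at most 44.1. Sums over 10 smooth muscle probe sets (29717 to 33374.6 and 29705.2 to 30892.5) overlapped, as did those over 5 endothelial ones (172.6 to 248.1 and 146.8 to 217.4) and 8 Schwann cell and neuronal ones (748.1 to 882.4 and 709 to 759.4). The part of these cell types in the results below was not tested.

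Mitotic probe sets leaned upwards with PTX and replication probe sets downwards, by small amounts that did not pass the test. Of the 21 mitotic probe sets 17 had positive log2 changes (81.0%), and of the 12 replication probe sets 3 did (25.0%), where the share over all 8740 probe sets was 45.4%. The median log2 change, on the scale of log2(signal + 16), was 0.10 for the mitotic probe sets, -0.14 for the replication probe sets and -0.03 for all. The mitotic median includes 5 probe sets too dim to be tested, and is the value of 1 of them, a Hmgb2 probe set. Over the 16 tested mitotic probe sets it was 0.25, and over all tested probe sets -0.02. Without control replicate 1 these medians were 0.07, -0.19 and -0.01, with 15 of 21 mitotic and 2 of 12 replication probe sets positive and 48.1% of all. No list test was run, and several probe sets read the same gene, so the counts are a description.

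With limma, 0 of the 28 member probe sets bright enough to be tested passed an adjusted p of 0.05, where 0.0763% of all 5244 tested probe sets did so, each of them higher with PTX. At an unadjusted p under 0.05, 5 of 16 tested mitotic probe sets were higher and 0 lower, and 2 of 12 replication probe sets were lower and 0 higher, against 7.97% higher and 4.61% lower over all tested probe sets. The 2 replication probe sets both read Pcna from the same sequence, so they are not independent readings. Every PTX array exceeded every control array for 5 of the 33 member probe sets, where 8.91% of all probe sets did so, and lay below every control array for 3, where 9.06% did. The 5 higher ones read the mitotic genes Racgap1, Stmn1, Ccnb1, Plk1 and Cdc20, and the 3 lower ones read the replication genes Pcna, on both its probe sets, and Ccne1. Leaving out an array can only add to these counts. Without control replicate 1 the counts were 5 and 3, where 14.1% of all probe sets were separated upwards and 13.8% downwards. Of the lower kind there were 6 without control replicate 2 and 6 without control replicate 3, where 14.4% and 18.5% of all probe sets were. Quantile normalization left 3 higher ones, with Plk1 and Cdc20 lost, where 8.3% of all probe sets were higher.

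**Figure D1:**
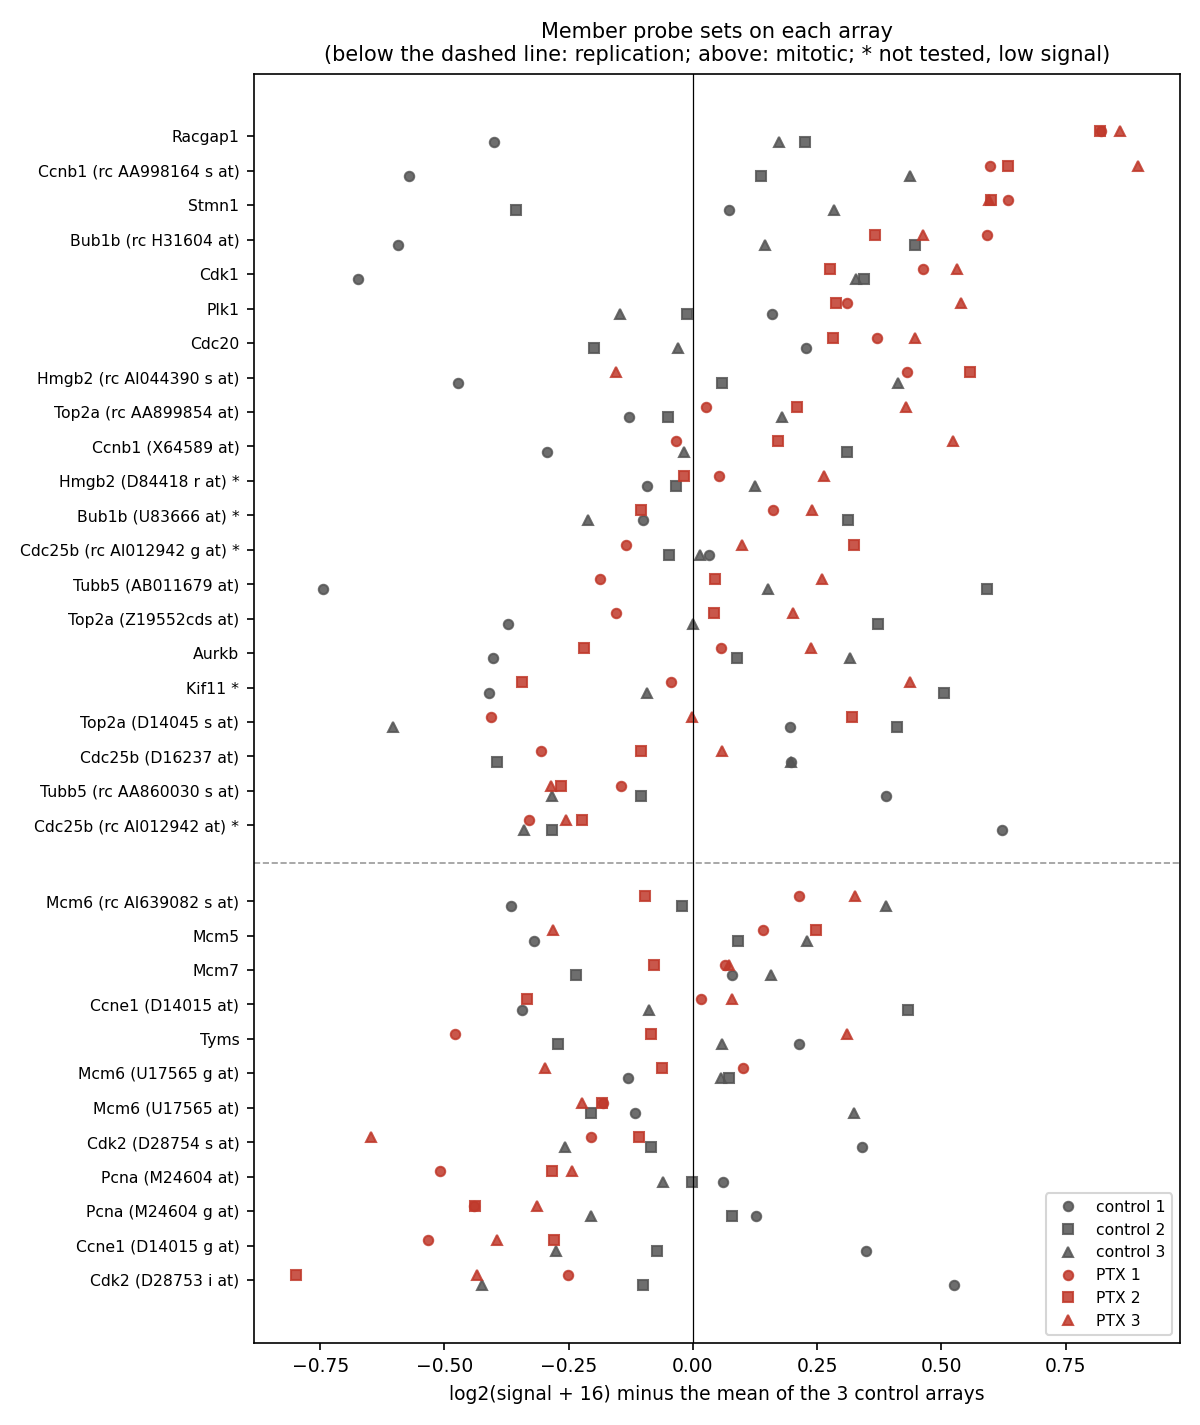
Each row is a member probe set and each symbol an array, placed at its log2(signal + 16) minus the mean of the 3 control arrays; grey is control and red PTX, and the shape gives the replicate number. Racgap1, 1 Ccnb1 probe set, Stmn1, Plk1 and Cdc20 have all red symbols to the right of all grey ones, and both Pcna probe sets and 1 of Ccne1 have them to the left; control 1 is the symbol farthest left in 12 of the 21 mitotic rows.

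Racgap1, part of the centralspindlin complex that positions the cleavage furrow, had the smallest p of all members. Its signals were 205.9, 326.5 and 314.2 in the controls and 501.1, 500.4 and 515.1 with PTX. The PTX arrays lay close together, well above the controls, of which control replicate 1 was the lowest. The means were 282 ± 66.4 and 506 ± 8.29 (SD, n = 3 each), a log2 change of 0.83 ± 0.19 (SE), or 1.78-fold, with a limma adjusted p of 0.209. Without control replicate 1 the log2 change was 0.63 with a limma adjusted p of 0.0239, the only member past the threshold under any setting tried; 1.87% of all tested probe sets passed upwards there and 0.343% downwards. Its probe set, rc_AA893717_at, belongs to a class, named rc_AA892 to rc_AA894, of which 69.8% of all probe sets were positive, or 68.8% without that array. In that class 23.7% of probe sets were separated upwards, against 8.91% of all. Of its 420 tested probe sets, 16 passed upwards without control replicate 1.

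Kif11, a kinesin motor that pushes the spindle poles apart, was the other spindle gene measured. It was too dim to be tested, at 5.1, 23.8 and 10.3 in the controls and 11.2, 6.1 and 22 with PTX.

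Cdc20, the activator of the anaphase-promoting complex, had 575.5, 424.1 and 478.6 in the controls and 636.4, 598 and 672 with PTX. Every PTX array was above the highest control, which was control replicate 1. The log2 change was 0.37 ± 0.15 (SE; limma adjusted p = 0.390), and 0.48 without that array (adjusted p = 0.0811). Plk1, the Polo kinase of spindle assembly and mitotic exit, had 405.8, 358.6 and 325.2 against 452.3, 445.4 and 533.2, again with the highest control in replicate 1 and no overlap. Its log2 change was 0.38 ± 0.15 (SE; limma adjusted p = 0.372), and 0.46 without control replicate 1. Since control replicate 1 was the highest control for both genes, leaving it out could only enlarge the difference, and this is no test of it.

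Cyclin B1, the partner of Cdk1, was read by 2 probe sets. On rc_AA998164_s_at the Ccnb1 signals were 94.8, 165 and 206.8 in the controls and 233.2, 239.6 and 290.3 with PTX, a log2 change of 0.71 ± 0.26 (SE; limma adjusted p = 0.360) that was 0.42 without control replicate 1. On X64589_at they were 466.9, 718.1 and 568.5 against 561.9, 650.1 and 834.8, which overlap, with a log2 change of 0.22, or 0.07 without that array. The probe sets thus had the same sign and differed in whether the groups were separated.

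For Cdk1, the mitotic kinase itself, the difference rested on 1 control array. Its signals were 286 on control replicate 1, 595.5 and 589 on the other controls, and 647.5, 566.8 and 680.3 with PTX. The log2 change was 0.42 ± 0.27 (SE; limma adjusted p = 0.508) with all arrays and 0.09 without control replicate 1. Bub1b, the BubR1 protein of the spindle checkpoint, showed the same on rc_H31604_at, with 67.7, 156.2 and 123.6 against 174.4, 146.7 and 158, and log2 changes of 0.47 and, without that array, 0.18. Its other probe set, U83666_at, was too dim to be tested (11.5 to 23.5 over the 6 arrays).

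The remaining mitotic regulators overlapped between the groups. Aurkb, the kinase of the chromosomal passenger complex, had 61.2, 92.5 and 111 in the controls and 90.1, 71.7 and 104.3 with PTX, a log2 change of 0.02 that was -0.18 without control replicate 1 and also changed sign with quantile normalization. Cdc25b, a phosphatase that activates Cdk1, had 218, 139.4 and 218.1 against 149.2, 173.8 and 196.7 on its tested probe set, a log2 change of -0.12. Its dim probe sets lay between 5.1 and 41.7. Top2a, the topoisomerase that untangles sister chromatids, had log2 changes of 0.22, 0.03 and -0.03 on 3 probe sets, the brightest of which gave 913.1, 964.2 and 1134.2 against 1018.9, 1158.5 and 1351.8.

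Among the general microtubule and chromatin proteins that dividing cells also need, Stmn1 was separated between the groups. It encodes stathmin, which destabilises microtubules, and had 1109.5, 819.8 and 1287.5 in the controls and 1644.7, 1606.2 and 1601.2 with PTX. The PTX arrays agreed within a narrow band above a wide control range. The log2 change was 0.61 ± 0.18 (SE), or 1.53-fold (limma adjusted p = 0.277), and 0.65 with control replicate 1 left out (adjusted p = 0.0801). Tubb5, a beta-tubulin, had 14021.8, 9959.8 and 8803.9 against 9691.7, 8909.2 and 8783.6 on its brighter probe set, a log2 change of -0.23 that was -0.04 without control replicate 1, and 0.04 on the dimmer one. Hmgb2, a DNA-bending chromatin protein, had 25.3, 43.7 and 60.3 against 61.2, 68.3 and 35.5 on rc_AI044390_s_at (log2 change 0.28, or 0.04 without control replicate 1), and at most 6 on the other probe set, which was not tested.

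The promoters hold sequence motifs that the gene list did not use, and those of the separated mitotic genes with a promoter entry in RefSeq are shown with the motif letters in capitals. The motifs searched were the CCAAT box (CCAAT), the CHR element (TTTGAA or TTCGAA) and E2F-type sites (TTTCCCGC, TTTGGCGC, TTTCGCGC or TTTGCCGC), each on both strands, from 250 bases before to 50 after the annotated start. Each line gives the 250 bases before the start, read 5′ to 3′ on the gene's strand in the rat assembly GRCr8. They lie at chr5:137255800-137256049 (minus strand) for Cdc20, chr1:186147408-186147657 (plus) for Plk1, chr2:33655226-33655475 (minus) for Ccnb1 and chr5:151964929-151965178 (plus) for Stmn1.
Cdc20: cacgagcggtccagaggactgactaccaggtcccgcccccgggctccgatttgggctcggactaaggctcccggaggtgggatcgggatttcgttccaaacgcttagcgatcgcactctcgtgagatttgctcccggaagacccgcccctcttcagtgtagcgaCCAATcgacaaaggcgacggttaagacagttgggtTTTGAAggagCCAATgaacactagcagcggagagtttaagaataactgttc
Plk1: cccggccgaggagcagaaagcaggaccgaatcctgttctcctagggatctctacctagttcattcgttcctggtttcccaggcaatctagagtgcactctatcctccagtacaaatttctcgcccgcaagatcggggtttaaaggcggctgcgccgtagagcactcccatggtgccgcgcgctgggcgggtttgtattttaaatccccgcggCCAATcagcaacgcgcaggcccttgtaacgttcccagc
Ccnb1: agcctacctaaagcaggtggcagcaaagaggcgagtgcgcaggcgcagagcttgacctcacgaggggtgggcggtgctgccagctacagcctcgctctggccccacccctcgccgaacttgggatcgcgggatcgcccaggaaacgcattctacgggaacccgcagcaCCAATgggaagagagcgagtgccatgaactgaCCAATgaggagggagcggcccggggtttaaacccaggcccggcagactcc
Stmn1: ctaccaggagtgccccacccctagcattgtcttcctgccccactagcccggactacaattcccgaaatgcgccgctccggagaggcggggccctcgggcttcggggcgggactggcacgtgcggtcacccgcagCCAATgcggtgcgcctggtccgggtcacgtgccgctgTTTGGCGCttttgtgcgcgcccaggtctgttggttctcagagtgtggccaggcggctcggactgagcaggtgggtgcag

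Cdc20 has CCAAT boxes at -86 and -41 and a CHR element at -51, where a position is that of the motif's first printed base and -1 is the base before the start. Plk1 has a CCAAT box at -38 and a CHR element at 7, within the transcript, and Ccnb1 has CCAAT boxes at -82 and -50. Stmn1 differs in having an E2F-type site, at -79, besides its CCAAT box at -116. Promoters were matched by symbol for 31 of the 37 listed genes, measured or not. A CCAAT box was present in 18 of 20 mitotic promoters and a CHR element in 14, against 37.5% and 19.7% of all 33469 promoters in the table. Here and below, promoters of the lists were counted by gene, a gene scoring if any of its entries held the motif. The share over all counts single entries, so the units differ. Both were present in 13 of 20, against 7.95% of all. The CCAAT box was also more frequent among the replication promoters than over all, at 7 of 11, and 2 of 11 had both motifs. A match is a run of letters and does not show that a factor binds there.

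Of the replication genes, Pcna was lower with PTX on both of its probe sets. Pcna encodes the sliding clamp of DNA polymerases, which repair also uses. M24604_at gave 2618.3, 2508.2 and 2407.7 in the controls and 1758.6, 2060.2 and 2118.1 with PTX. Its means were 2511 ± 105 and 1979 ± 193 (SD, n = 3 each), a log2 change of -0.35 ± 0.13 (SE; limma adjusted p = 0.359). M24604_g_at, made from the same sequence and so no independent reading, gave 1339.5, 1294.8 and 1060.3 against 898.8, 899.4 and 982.6, a log2 change of -0.40 ± 0.14 (SE; limma adjusted p = 0.338). In both, every control array was above every PTX array. Without control replicate 1 the log2 changes were -0.31 and -0.33, close to those over all arrays.

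The kinase that starts S phase had lower values on the whole, without passing. Ccne1, cyclin E1, had 186.8, 135.5 and 115.5 in the controls and 94.1, 115.2 and 105.1 with PTX on D14015_g_at, the nearest arrays being 115.5 and 115.2, with a log2 change of -0.40 ± 0.21 (SE; limma adjusted p = 0.444), or -0.23 without control replicate 1. With cyclic loess normalization its groups overlapped. D14015_at, of the same sequence, had 85.2, 157.3 and 104.7 against 113.9, 85.9 and 119.6 and a log2 change of -0.08. Cdk2, its catalytic partner, had log2 changes of -0.49 and -0.32 on 2 probe sets, both with the highest value, 149 and 90.6, on control replicate 1. Without that array they were -0.23 and -0.15.

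The subunits of the Mcm helicase showed no common direction. Mcm6 was read by 3 probe sets, with log2 changes of 0.15, -0.20 and -0.09; the first, rc_AI639082_s_at, gave 248, 319 and 429.6 in the controls and 378.4, 302.1 and 410.5 with PTX. Mcm5 had 99.8, 138 and 153.4 against 143.5, 155.7 and 103, a log2 change of 0.04 that was -0.12 without control replicate 1. Mcm7 had 337.1, 268.3 and 356.9 against 334, 301 and 335.8, a log2 change of 0.02. The small values of Mcm5 and Mcm7 turned negative with quantile and cyclic loess normalization. Tyms, which makes thymidylate for DNA, had 86.8, 57.4 and 76.3 against 47.6, 67.6 and 93.9 (log2 change -0.08, or 0.02 without control replicate 1).

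Pcna, the replication gene whose groups were separated on both probe sets, and Mcm6, which was not separated on any, are shown for the motifs before their starts. Pcna lies at chr3:139955821-139956070 and Mcm6 at chr13:42404353-42404602, both on the minus strand of GRCr8.
Pcna: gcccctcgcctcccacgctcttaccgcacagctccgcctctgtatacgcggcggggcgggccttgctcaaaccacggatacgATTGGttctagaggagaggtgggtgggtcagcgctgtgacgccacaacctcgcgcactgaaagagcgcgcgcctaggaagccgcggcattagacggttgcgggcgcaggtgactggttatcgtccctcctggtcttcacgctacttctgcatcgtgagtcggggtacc
Mcm6: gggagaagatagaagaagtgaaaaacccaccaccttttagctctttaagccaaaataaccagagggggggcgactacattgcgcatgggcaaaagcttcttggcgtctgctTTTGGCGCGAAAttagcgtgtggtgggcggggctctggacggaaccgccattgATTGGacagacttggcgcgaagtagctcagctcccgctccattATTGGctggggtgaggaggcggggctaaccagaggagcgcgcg

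Pcna has 1 CCAAT box, at -168, and none of the E2F-type letters searched. Mcm6 has E2F-type sites at -139 and -135 on opposite strands, which overlap, and CCAAT boxes at -86 and -43. Pcna and Mcm6 were picked by outcome, and a link between motif and response was not tested. Cdk2, whose groups overlapped, had a CCAAT box at -117 and likewise none of the E2F-type letters. Over the list, E2F-type sites were present in 6 of 11 replication promoters and 2 of 20 mitotic promoters, against 2.14% of all, and a CHR element in 3 of 11 replication promoters.

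Probe set names bear on these counts, since the response differed by name class over the whole array. The 3 replication probe sets with positive log2 changes (Mcm5, Mcm7 and 1 of Mcm6) are the only 3 whose names begin with rc_, and all 9 others were negative. Of all probe sets not named rc_, 38.1% were positive, and their median log2 change was -0.08. Of those named rc_ outside the classes below, 48.5% were positive, with a median of -0.01. Of the 12 mitotic probe sets not named rc_, 10 were positive, and of the 9 named rc_, 7 were. Racgap1 was the only member among the probe sets named rc_AA892 to rc_AA894 (69.8% of which were positive), and no member was named rc_AA799 or rc_AA800 (83.7%). Of the 10 member genes with several probe sets, 6 had the same sign on all of them (Bub1b, Ccnb1, Ccne1, Cdk2, Hmgb2 and Pcna).

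**Figure D2:**
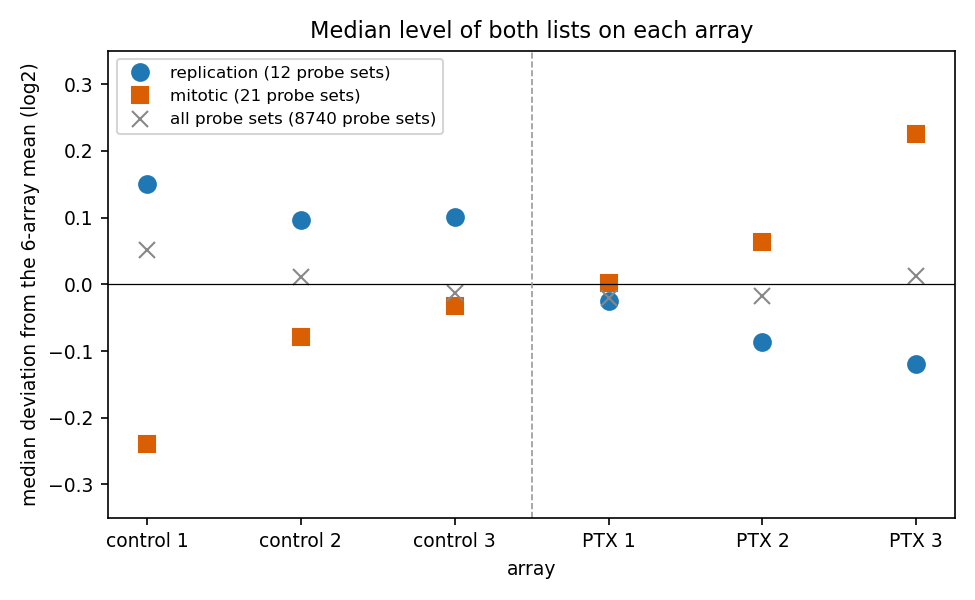
For each array, the median over a list's probe sets of the log2 value minus that probe set's mean over the 6 arrays; circles are the 12 replication probe sets, squares the 21 mitotic ones and crosses all 8740. The replication median is 0.10 to 0.15 on the control arrays and -0.12 to -0.02 on the PTX arrays, and the mitotic median -0.24 to -0.03 and 0.00 to 0.23.

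Array by array, the mitotic medians lay below the 6-array means in the controls and at or above them with PTX. The replication medians did the reverse. Such deviations cancel over the 6 arrays of a probe set, so the opposite sides restate the list differences. What they add is how the arrays of a group vary. The median deviation of the mitotic probe sets from their 6-array means was -0.24, -0.08 and -0.03 in the controls and 0.00, 0.06 and 0.23 with PTX, on the log2 scale. That of the replication probe sets was 0.15, 0.10 and 0.10 against -0.02, -0.09 and -0.12. Over all probe sets the medians stayed between -0.02 and 0.05. Control replicate 1 held the lowest of the 6 values for 12 of the 21 mitotic probe sets, and PTX replicate 3 the highest for 8, whereas over all 8740 probe sets control replicate 1 was the lowest for 2024 and PTX replicate 3 the highest for 1265.

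**Figure D3:**
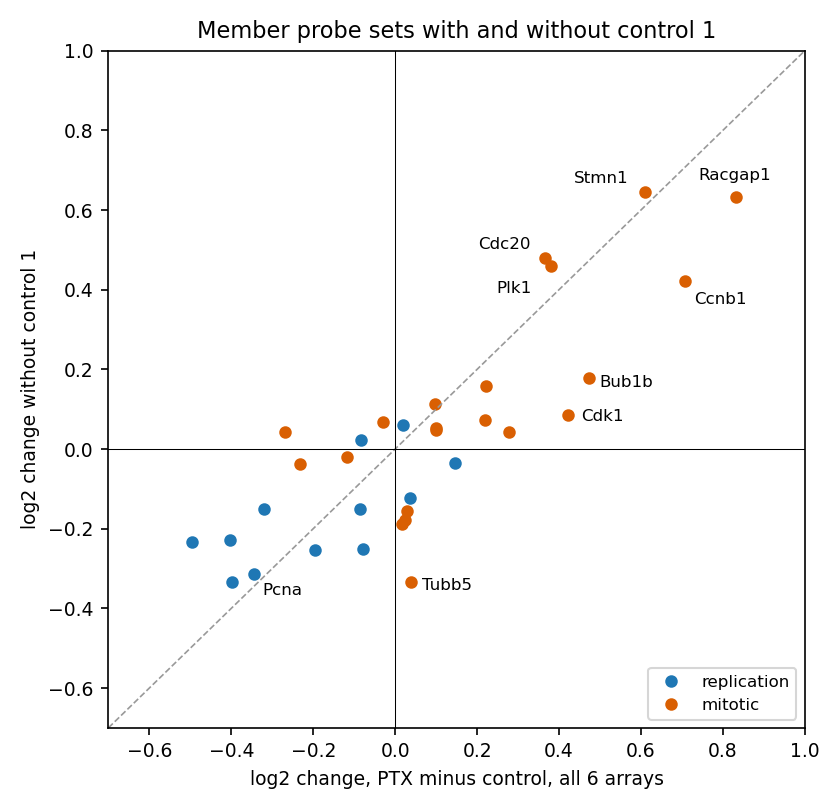
Each point is a member probe set, with its log2 change over all 6 arrays on the horizontal axis and without control 1 on the vertical axis; the dashed line marks equal values. Stmn1, Cdc20, Plk1 and Pcna lie near the line, while Cdk1 and Bub1b fall from 0.42 and 0.47 to 0.09 and 0.18.

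Other cell cycle genes were read by 72 probe sets of 50 genes, from a list of 129. With limma 0 of the 60 tested passed, and 4 higher and 4 lower ones had an unadjusted p under 0.05. Their medians differed by role: 0.32 for 15 probe sets of mitosis genes, with 11 positive, -0.14 for 22 of replication genes, with 9 positive, -0.20 for 27 of G1 control genes, with 7 positive, and -0.24 for 8 of damage checkpoint genes, with 2 positive. The groups did not overlap for 4 mitosis probe sets, all higher, for 2 replication ones, both lower, for 6 G1 control ones, 2 higher and 4 lower, and for 2 damage checkpoint ones, both lower. Over the 72 this made 8.33% higher and 11.1% lower, near the 8.91% and 9.06% of all probe sets, and the unadjusted calls were 6.67% in each direction of the 60 tested, against 7.97% and 4.61%. Without control replicate 1 the medians were 0.32 for mitosis, -0.04 for replication (6 positive), -0.15 for G1 control (4 positive) and -0.34 for damage checkpoint genes. The separated probe sets then numbered 7 higher and 1 lower for mitosis, 2 lower for replication, 2 higher and 9 lower for G1 control, and 1 higher and 4 lower for damage checkpoint genes. In total 10 of the 72 were higher and 16 lower, where 14.1% of all probe sets were separated upwards and 13.8% downwards. Such counts can only grow when an array is left out. The difference between the roles was not tested.

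**Figure D4:**
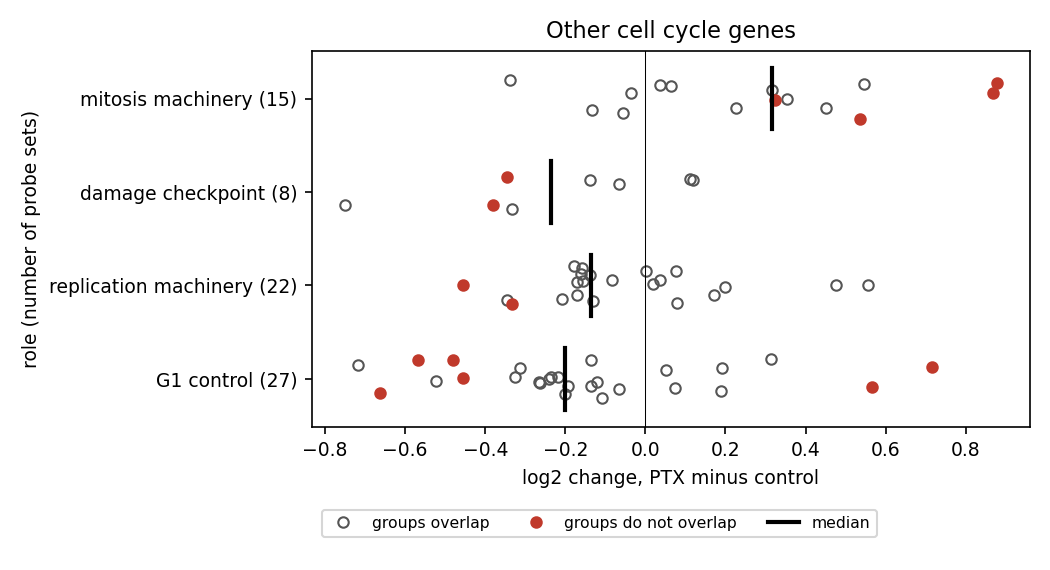
Log2 change with PTX of each of the 72 probe sets of other cell cycle genes, by role; filled points are probe sets whose groups do not overlap, open points the rest, and the bar is the median of the role. Mitosis genes have a median of 0.32, and the other roles lie between -0.24 and -0.14.

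On the higher side, Pttg1, the securin that holds separase in check until anaphase, had 414.9, 418.5 and 397.4 in the controls and 584.2, 628.8 and 594.2 with PTX. These were tight groups with no overlap and a log2 change of 0.54 ± 0.12 (SE; limma adjusted p = 0.215), which passed without control replicate 1 (a log2 change of 0.54 with an adjusted p of 0.0412). Smc4, a condensin subunit that compacts chromosomes, had 262.7, 169.4 and 360.1 against 453.3, 435.2 and 542.6 (log2 change 0.87, limma adjusted p = 0.291). Hmgb1, a chromatin protein akin to Hmgb2, had 414.8, 514.2 and 1122.3 in the controls and 1136.6, 1207.6 and 1129 with PTX. Its log2 change was 0.88 (limma adjusted p = 0.365). It passed without control replicate 3, the control nearest to the PTX arrays (1.30, limma adjusted p = 0.0375). Without control replicate 1 it was 0.59 (limma adjusted p = 0.285). The G1 factor E2f5 had a log2 change of 0.72 on dim signals.

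On the lower side, Ccnd1, the D-type cyclin that mitogens induce in G1, had 763.1, 848.1 and 701.1 in the controls and 462.3, 482.8 and 494.3 with PTX on D14014_g_at (log2 change -0.66, limma adjusted p = 0.184), and -0.48 on D14014_at. The first passed when control replicate 1 was left out, with -0.67 and a limma adjusted p of 0.0239, and the other 3 Ccnd1 probe sets had log2 changes of -0.26 to -0.24. Ccnd2, another D-type cyclin, had 2712.5, 2348.6 and 1875.5 against 1396.2, 1643.7 and 1583.6 on D16308_at (-0.57, adjusted p = 0.277), and 0.07 on rc_AA899106_at, which was -0.25 with the groups separated when control replicate 1, at 2807.7 against 5817.4 and 5333.8 on the other controls, was left out. Gadd45a, a growth arrest gene of the DNA damage response, had -0.38 on L32591mRNA_g_at and -0.14 to -0.35 on its other 3 probe sets.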

How the data were processed

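Per the labels, total RNA of 6 cultures was biotin-labelled and hybridised to 1-colour Affymetrix arrays. The deposited table holds linear intensities, which the authors made with GCOS per the submitters' processing notes; its settings are not given here. They were used without further scaling. Of 8740 probe sets, 7006 have 1 gene symbol in the platform annotation, 308 several and 1426 none; 6985 symbols were updated through RefSeq's gene table (GRCr8, names only). Fold changes are on the scale of log2(signal + 16), which understates those of dim probe sets. Probe sets with a mean under the 40th percentile were not tested, leaving 5244, which included 28 of the 33 member probe sets. These were fitted in R 4.3.3 by limma 3.58.1, using lmFit and an eBayes step whose prior follows intensity. Tests were two-sided, p-values were adjusted over all of them by Benjamini-Hochberg, and the threshold was 0.05. The method was tried beforehand in 20 simulations with 200 of the 5244 probe sets changed. It recovered 13.7% of 1.5-fold, 62.4% of 2-fold and 95.7% of 4-fold changes, so most 1.5-fold changes were missed. Of the calls, 4.7% were false. The simulated arrays had independent noise with none standing apart as control replicate 1 does, so the simulations do not cover that feature. With each array left out, the same 5244 were tested. The number of arrays limits the precision.

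Every member is named. Of the other cell cycle genes, up to 4 probe sets per direction with the smallest p are named, with their genes' other probe sets. The members and lists were chosen with earlier results of these data known. Same-numbered cultures did not deviate together from their group means (correlations of -0.09, -0.11 and -0.01), so the numbers were not taken as pairs. Other pseudocounts, filters, normalizations and variance models, a block on the replicate number, and each array left out were tried.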

Additional observations from a re-analysis of the deposited data

How the results depend on the processing

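The number of member probe sets past an adjusted p of 0.05 stayed at 0 under every alternative but 1, lying between 0 and 1 with an array left out. That of other cell cycle probe sets was 0 under every alternative but 2, lying between 0 and 2. Over all tested probe sets the count was 4, against 0 to 7 under the settings that keep all arrays and 0 to 116 with an array left out. Racgap1, Ccnd1 and Pttg1 passed without control replicate 1, and Hmgb1 without control replicate 3. With the replicate number as a block (the replicate block), 0 members and 0 of all probe sets passed, against 4 of all without it; the smallest adjusted p of a member was 0.385.

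The median log2 change kept its sign under each alternative. For the mitotic probe sets (0.10) it was 0.23 with a pseudocount of 1, 0.28 with the brightest probe set of each gene, 0.04 with a pseudocount of 64, and 0.068 to 0.27 with an array left out. For the replication probe sets (-0.14) it was -0.22 with quantile normalization, -0.086 with the brightest probe set of each gene, and -0.26 to -0.091 with an array left out. Separated member probe sets numbered 5 to 7 higher and 3 to 6 lower with an array left out, which cannot undo a separation, and 3 higher with quantile normalization. Of all 8740 probe sets, 1024 to 1288 were separated upwards and 1194 to 1615 downwards with an array left out. With quantile normalization 8.3% of all were separated upwards. The causes were not tested.

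Of the 28 tested member probe sets, 10 changed sign under at least 1 alternative, none of them past the threshold. With quantile and cyclic loess normalization respectively, Tubb5 (AB011679_at) had -0.045 and -0.0063, Mcm7 -0.061 and -0.023, Mcm5 -0.043 and -0.0017, and Top2a (Z19552cds_at) -0.052 and -0.016, while Aurkb had -0.0022 with quantile normalization. With an array left out the log2 change ranged from -0.33 to 0.34 for this Tubb5 probe set, -0.10 to 0.10 for Mcm7, -0.12 to 0.20 for Mcm5, -0.16 to 0.22 for this Top2a probe set and -0.18 to 0.18 for Aurkb. It ranged from -0.33 to 0.18 for Top2a on D14045_s_at, -0.25 to 0.14 for Ccne1 on D14015_at, -0.28 to 0.11 for Tyms, -0.036 to 0.34 for Mcm6 on rc_AI639082_s_at and -0.18 to 0.019 for Mcm6 on U17565_g_at. Signals near the background carry little information on Kif11 and on the dim probe sets of Cdc25b, Bub1b and Hmgb2.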

Other observations

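The array holds 3 further probe sets that name Hmgb2 together with copies of it (Hmgb2l1, Hmgb2l2 and Hmgb2-ps6), so they were not counted as members and their signal cannot be assigned to 1 of these genes. On D84418_s_at the signals were 219.4, 445.9 and 497.3 in the controls and 636.6, 722 and 656.9 with PTX, groups that did not overlap, with a log2 change of 0.85 ± 0.28 (SE; limma adjusted p = 0.324), or 0.50 without control replicate 1. The other 2 overlapped, with log2 changes of 0.01 on rc_AA996401_s_at and 0.16 on rc_AI008836_s_at.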
